A study of Mus musculus with 8 samples.

Results

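The collagen chain genes are the 42 genes whose symbol is Col, a type number, a and a chain number, such as Col1a1, out of 20696 genes in the deposited mouse tables. All 42 are among the 19685 genes of the table for LT-HSC (long-term hematopoietic stem cells), and 36 are also among the 18904 genes of that for MPP (multipotent progenitors). The members were found by symbol alone, with no use of their counts. LT-HSC can rebuild the blood for life, and MPP are their shorter-lived offspring. Tet1 encodes an enzyme that oxidizes methylated cytosine in DNA, and the comparisons ask which transcripts differ where it was knocked out (KO) from wild type (WT).

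There were 4 groups of 2 libraries each: Tet1 KO and WT cells of the LT-HSC sort, and Tet1 KO and WT cells of the MPP sort. All groups were flow sorted from the bone marrow of mice with the strain label CD57BL/6, at an age of 6 months, 20 weeks after a transplant of Tet1 KO or WT marrow. RNA came from 10000 LT-HSC or 100000 MPP, and poly(A) RNA was sequenced as 50 bp read pairs. The labels do not say how the Tet1 allele was made, which of its exons is missing, how the sort was gated, or whether host cells were kept out. Nor do they name the animals behind the 2 libraries of each group. The p-values therefore cover the spread between libraries alone, and that spread may be technical.

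Collagens are secreted proteins in which 3 chains wind into a triple helix. Types I, III and V build the fibrils of bone and soft connective tissue, type II and type XI those of cartilage, and type IV the sheets of basement membranes, while fibril-associated types decorate fibrils and transmembrane types stay on the cell. In marrow, osteoblasts and stromal cells are the main makers of the fibrillar types, and blood cells mostly meet collagen through receptors. The members were grouped by this structure into 5 fibrillar chains typical of bone (Col1a1, Col1a2, Col3a1, Col5a1 and Col5a2), 6 other fibrillar chains, 6 basement membrane chains, 2 short-chain network chains, 7 beaded filament chains, 1 anchoring chain, 9 fibril-associated chains, 4 transmembrane chains and 2 multiplexins. The classes were chosen with earlier results of these data known.

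LT-HSC libraries held 4976459 to 5479731 counts and MPP libraries 11928659 to 12504581. Levels are counts scaled to the library total (CPM). With 3 counts as the floor, a gene at 0 may be as high as 0.547 to 0.603 CPM in LT-HSC libraries and 0.240 to 0.251 CPM in MPP libraries, for counting error only. Tet1 itself had 336 and 379 counts in the LT-HSC KO libraries, against 332 and 428 in the LT-HSC WT libraries, while MPP KO libraries had 765 and 855 and MPP WT libraries 1207 and 1323. KO in LT-HSC therefore means the libraries labelled KO. The summed level of 4 Y-linked genes was 12.3 and 14.4 CPM in LT-HSC KO libraries and 143 and 177 CPM in LT-HSC WT libraries, and 2.88 and 5.56 CPM in MPP KO against 166 and 174 CPM in MPP WT. Sex and genotype cannot be told apart here. All 9 LT-HSC markers in the table and all 5 MPP markers had counts in every library of their own population. Their differences between KO and WT are given with the other markers.

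Promoters of 5 members that the results turn on are shown: 3 of the bone fibrillar genes, Col5a3, which was higher in KO of both populations, and Col16a1, the one member lower in LT-HSC KO. Each is the 250 bases before the transcription start in RefSeq annotation of GRCm38.p6, given 5′ to 3′ on the strand of the gene; 34 of the 42 members had an entry, and Col1a1 and Col5a2 had none. Capitals mark a CCAAT box, a TATAAA box or a GGGCGG box (the Sp1 type), each searched on both strands.
Col1a2, chr6:4505368-4505617, plus strand: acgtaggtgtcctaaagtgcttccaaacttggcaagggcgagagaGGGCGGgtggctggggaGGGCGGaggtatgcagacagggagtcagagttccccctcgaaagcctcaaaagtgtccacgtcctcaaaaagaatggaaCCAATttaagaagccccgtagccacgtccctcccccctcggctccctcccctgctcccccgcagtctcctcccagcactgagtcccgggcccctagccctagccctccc
Col3a1, chr1:45311288-45311537, plus strand: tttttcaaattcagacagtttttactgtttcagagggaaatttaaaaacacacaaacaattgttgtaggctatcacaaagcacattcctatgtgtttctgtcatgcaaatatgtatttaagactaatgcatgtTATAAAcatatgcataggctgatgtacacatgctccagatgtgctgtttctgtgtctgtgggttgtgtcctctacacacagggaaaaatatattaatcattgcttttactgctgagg
Col5a1, chr2:27886175-27886424, plus strand: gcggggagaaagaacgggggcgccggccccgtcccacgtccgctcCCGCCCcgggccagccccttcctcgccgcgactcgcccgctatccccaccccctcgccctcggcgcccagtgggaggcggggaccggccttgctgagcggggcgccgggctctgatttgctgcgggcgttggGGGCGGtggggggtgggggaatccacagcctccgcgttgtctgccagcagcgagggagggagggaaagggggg
Col5a3, chr9:20815068-20815317, minus strand: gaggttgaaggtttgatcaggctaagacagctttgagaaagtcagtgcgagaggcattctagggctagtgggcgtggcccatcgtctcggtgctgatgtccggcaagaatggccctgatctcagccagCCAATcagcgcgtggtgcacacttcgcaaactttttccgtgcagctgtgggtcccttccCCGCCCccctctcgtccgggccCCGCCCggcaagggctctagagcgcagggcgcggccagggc
Col16a1, chr4:130047590-130047839, plus strand: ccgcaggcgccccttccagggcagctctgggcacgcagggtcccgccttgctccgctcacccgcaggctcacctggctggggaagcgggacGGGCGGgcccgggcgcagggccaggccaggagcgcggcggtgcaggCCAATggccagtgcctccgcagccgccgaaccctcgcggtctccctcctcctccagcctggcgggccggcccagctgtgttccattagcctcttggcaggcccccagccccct

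The Col1a2, Col5a3 and Col16a1 stretches each held 1 CCAAT box together with GGGCGG boxes, of which Col1a2 and Col5a3 had 2 and Col16a1 had 1. Col5a1 had 2 GGGCGG boxes in a stretch of 76.4% G and C, and Col3a1 had 1 TATAAA box and none of the others in a stretch of 35.2% G and C. Over the 34 collagen promoters, 12 (35.3%) held CCAAT, 4 (11.8%) held TATAAA and 21 (61.8%) held GGGCGG. Over all 32851 promoters of the table the shares were 33.8%, 12.4% and 32.7%. So Col16a1, which was lower in LT-HSC KO, carried the same kinds of box as Col1a2 and Col5a3, which were higher. A match is a description of the letters and no evidence of binding.

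In LT-HSC, 26 of the 38 collagen genes with enough counts to test were higher in KO than in WT and 1, Col16a1, was lower, while 11 were not called. Over all 15684 genes tested, 22.5% were called higher and 10.9% lower. The median log2 fold change (KO over WT) was 3.15 over the 38 collagen genes, or 3.07 with genes at 0 in WT set to their lower bound, against 0.03 over all genes. The filter keeps a gene with enough counts in either genotype. Col11a1, Col5a3 and Col6a1, at 0 in both WT libraries, passed it through KO alone and could only come out higher. The same holds for members with 1 to 3 WT counts in all, such as Col3a1. The share called higher and the median are therefore in part set by the filter. In 28 of the 38, both KO libraries lay above both WT libraries in CPM, in 2 both lay below, and in 8 they overlapped. Over all genes tested, both KO libraries lay above in 37.0% and below in 29.5%. These all-gene shares were counted on CPM rescaled by edgeR's TMM factors, a different scale from that of the 38. Every call is an adjusted p under 0.05 in edgeR's quasi-likelihood test. In bulk RNA, fewer cells of a type and less RNA per cell cannot be told apart. By class, 5 of 5 bone fibrillar, 5 of 6 other fibrillar, 4 of 6 basement membrane, 3 of 7 beaded filament, 4 of 7 fibril-associated and 3 of 3 transmembrane chains tested were higher.

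**Figure D1:**
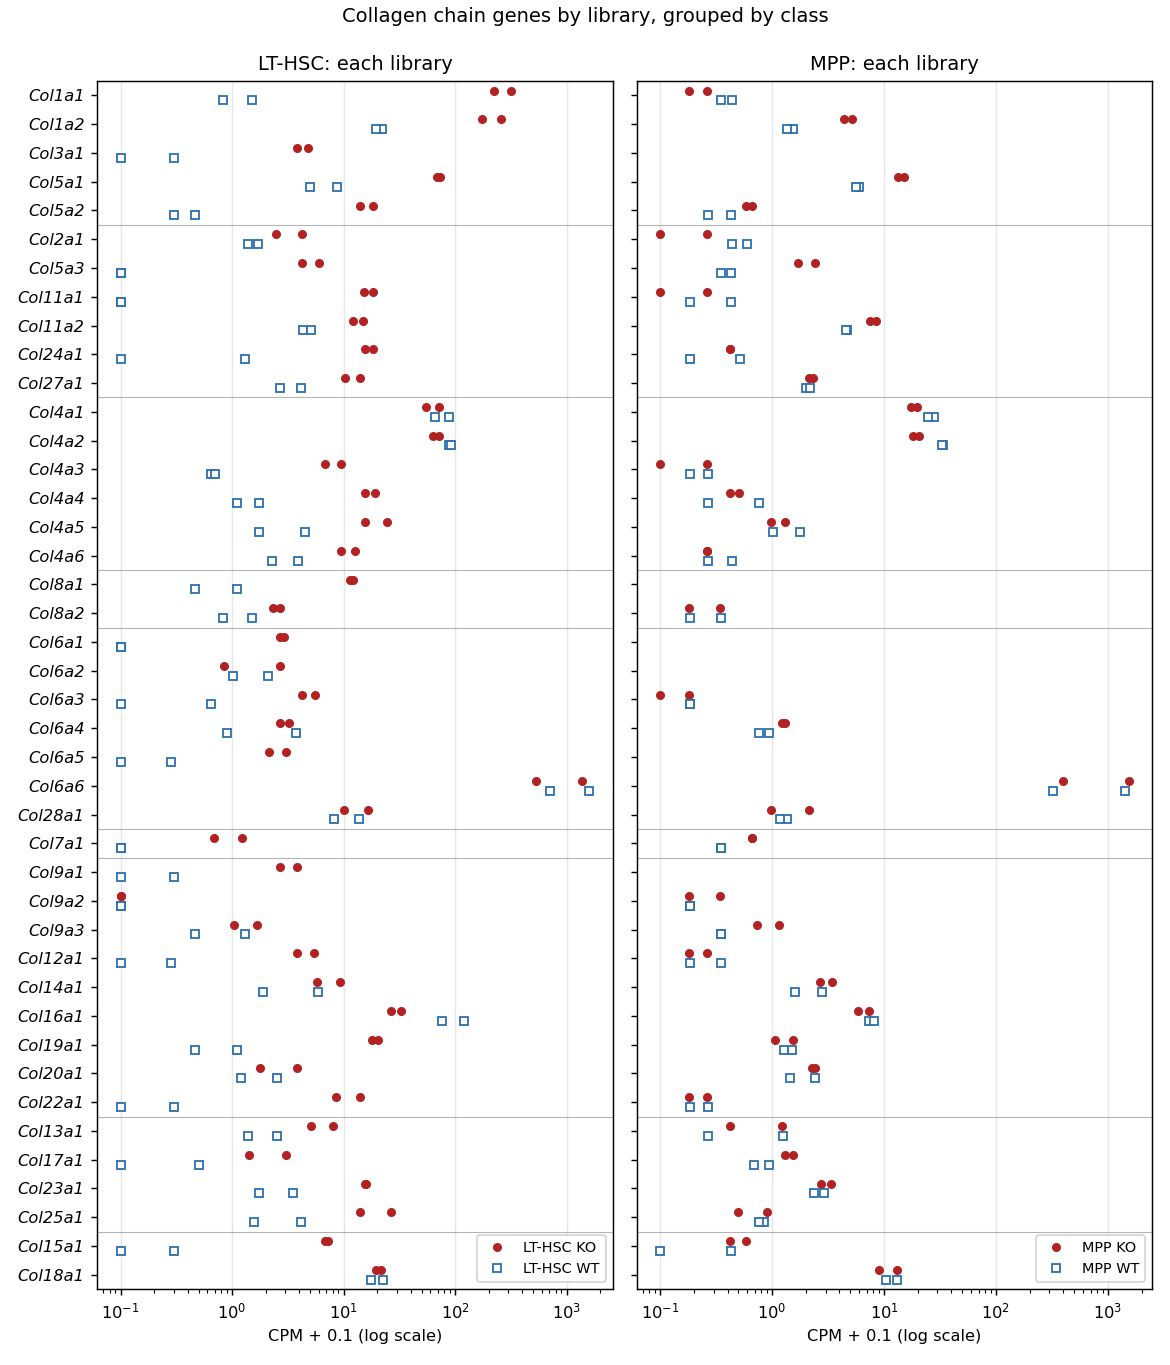
Level of each collagen gene in CPM plus 0.1 (log scale) in every library, LT-HSC on the left and MPP on the right; filled circles are KO, open squares are WT, and lines separate the classes. In LT-HSC Col1a1 lies at 314 and 225 CPM in KO and at 0.730 and 1.41 CPM in WT, Col16a1 has both KO circles left of its WT squares, and Col6a6, with overlapping genotypes, lies furthest right in both panels.

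Among the genes that rose, Col1a1 and Col1a2 had the most counts in KO. Col1a1, which encodes the alpha1 chain of type I collagen and so the main protein of bone (ENSMUSG00000001506, chromosome 11, 94797538 to 94814356 on mm9), had 1683 and 1136 counts in the LT-HSC KO libraries, against 4 and 7 in the LT-HSC WT libraries. Its log2 fold change was 7.97 (SE 0.34, adjusted p = 3.76e-05). Col1a2, the alpha2 chain of the same protein (ENSMUSG00000029661, chromosome 6, 4454814 to 4491543), had 1384 and 887 counts in KO libraries, against 120 and 97 in WT. It rose by 3.39 (SE 0.25, adjusted p = 0.000137), with mean levels of 217 ± 58.7 CPM in KO libraries and 20.7 ± 1.70 CPM in WT libraries (SD, n = 2). In WT, then, Col1a1 was at a handful of counts while Col1a2 was readily detected.

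Type V collagen sets the width of type I fibrils. Its alpha1 chain gene Col5a1 (ENSMUSG00000026837, chromosome 2, 27741945 to 27895034) had 370 and 370 counts in KO libraries, against 27 and 43 in WT, or 3.40 as a log2 fold change (SE 0.26, adjusted p = 0.000151). Col5a2, its alpha2 chain (chromosome 1, 45431166 to 45560127), had 98 and 70 counts in KO libraries, against 2 and 1 in WT. With so few WT counts it is given as a ratio of normalized counts, 56.1 (95% exact interval 18.9 to 275, adjusted p = 0.000388). Col3a1, the single chain of type III collagen of reticular fibres (chromosome 1, 45368383 to 45406551), had 25 and 19 counts in KO libraries, against 0 and 1 in WT, with an adjusted p of 0.00279. None of the 5 genes had a KO library overlapping a WT library.

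Per kilobase of exon, Col1a1 was at 47.9 and 34.2 CPM per kb in LT-HSC KO against 0.111 and 0.214 in LT-HSC WT. Exonic length here joins the exons of all annotated transcripts, 6.563 kb for Col1a1 and 12.426 kb for Col1a2. Ratios between chains depend on these lengths. Col1a2 was at 20.8 and 14.1 CPM per kb in KO against 1.76 and 1.57 in WT. The type I triple helix holds a pair of alpha1 chains for each alpha2 chain, but RNA ratios that depend on annotated length cannot be set against this. The ratio of Col1a1 to Col1a2 was 2.30 and 2.42 in the KO libraries, but 0.0631 and 0.137 in the WT libraries, where Col1a2 was the more abundant. Without division by exonic length, the KO libraries had 314 and 225 CPM of Col1a1 against 258 and 175 CPM of Col1a2. In MPP the ratio was 0.0296 and 0.0714 in KO against 0.445 and 0.379 in WT, on 1 to 4 Col1a1 counts per library. Col5a1 exceeded Col5a2 by 4.27 and 5.97 times in LT-HSC KO and by 15.3 and 48.6 times in LT-HSC WT, where Col5a2 had 1 or 2 counts. The basement membrane partners Col4a1 and Col4a2 stayed between 0.637 and 0.881 to 1 over all 8 libraries.

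**Figure D2:**
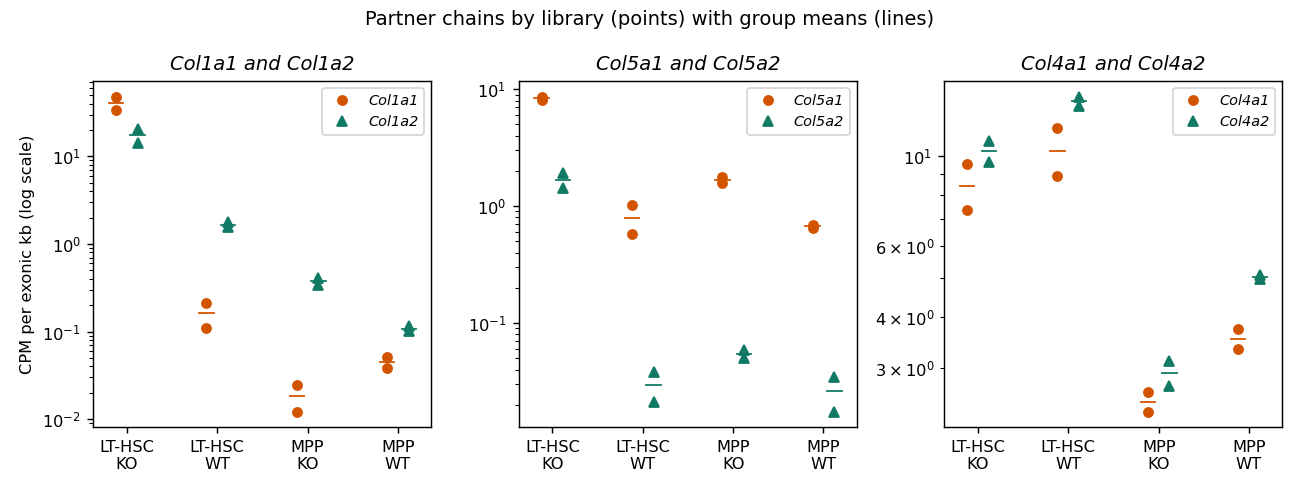
Level of 3 pairs of partner chains in CPM per kilobase of exon (log scale) in each library (points) with the group mean (lines), for KO and WT of LT-HSC and then of MPP. Col1a1 lies above Col1a2 in LT-HSC KO, at 47.9 and 34.2 against 20.8 and 14.1, and below it in the other 3 groups, while Col4a1 and Col4a2 lie close together in all 4.

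Among the other fibrillar chains, Col11a1, a type XI chain of cartilage fibrils, had 98 and 77 counts in the LT-HSC KO libraries, against 0 and 0 in WT, at least 58.4-fold higher against a floor of 3 counts over the WT group (adjusted p = 0.000414). Col5a3, the third type V chain, had 32 and 21 counts in KO libraries, against 0 and 0 in WT, at least 17.7-fold higher (adjusted p = 0.00213). Col11a2, the partner of Col11a1, was present in both genotypes, with 80 and 61 counts in KO libraries, against 23 and 25 in WT, or 1.55 as a log2 fold change (SE 0.36, adjusted p = 0.0119). Col24a1, a fibrillar chain of developing bone, rose by 4.82 (SE 0.72) and Col27a1, a fibrillar chain of cartilage, by 1.85 (SE 0.43). Col2a1, the main collagen of cartilage, was not called, at 22 and 12 counts in KO libraries, against 7 and 8 in WT (log2 fold change 1.17, SE 0.55, adjusted p = 0.142). Without LT-HSC KO replicate 1, Col11a2 (1.35, adjusted p = 0.144) and Col27a1 were no longer called.

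The basement membrane chains split. The abundant pair Col4a1 and Col4a2, which form the common type IV network, were not called in LT-HSC: Col4a1 had 382 and 277 counts in KO libraries, against 478 and 331 in WT (log2 fold change -0.29, SE 0.23, adjusted p = 0.372). Col4a2 had 386 and 323 counts in KO libraries, against 481 and 461 in WT (-0.41, SE 0.17, adjusted p = 0.0978). Col4a3, Col4a4, Col4a5 and Col4a6, which replace that pair in specialised membranes such as those of the kidney, all rose, by 3.74 (SE 0.56), 3.66 (SE 0.45), 2.75 (SE 0.48) and 1.87 (SE 0.44); without LT-HSC KO replicate 1, Col4a6 was not called (1.61, adjusted p = 0.137). After subtraction of counts along gene span, set out with the long genes, Col4a4 stayed called (3.36, adjusted p = 0.00858), Col4a5 was not called (2.04, adjusted p = 0.0621), and Col4a3 and Col4a6 could not be tested. Col4a1 and Col4a2 overlap at their starts on opposite strands in the deposited coordinates; Col5a1 overlaps 2810430I11Rik, and Col18a1 overlaps Slc19a1. The sources used here do not say whether counting used strand, so reads of such neighbours cannot be told apart.

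Of the beaded filament chains, Col6a1, Col6a3 and Col6a5 were called higher, all on low counts, and each lost its call without LT-HSC KO replicate 1 and could not be tested after the span subtraction. Col6a1, a core chain of type VI collagen, had 15 and 13 counts in the LT-HSC KO libraries, against 0 and 0 in WT, at least 9.35-fold higher (adjusted p = 0.00363). Its core partner Col6a2 had 4 and 13 counts in KO libraries, against 5 and 10 in WT (log2 fold change 0.18, SE 0.71, adjusted p = 0.871). Col28a1, Col6a2, Col6a4 and Col6a6 were not called. Among chains of other classes, Col22a1, known from muscle-tendon junctions, had 45 and 71 counts in KO libraries, against 0 and 1 in WT, a ratio of 116 (95% exact interval 20.4 to 4629, adjusted p = 0.000910). The amount subtracted for gene span was 99.5% of its KO counts, and it could not be tested after that. Col15a1, a basement membrane multiplexin, had 38 and 34 counts in KO libraries, against 0 and 1 in WT, a ratio of 72.1 (12.5 to 2888, adjusted p = 0.00142). The amount subtracted for gene span was 70.6% of its KO counts. It stayed called after that (adjusted p = 0.0166), but could not be tested with the wider yardstick set out below. Col8a1, a short-chain network gene of vessels, rose by 4.08 (SE 0.54). Col18a1, the multiplexin that gives rise to endostatin, was not called, at 105 and 108 counts in KO libraries, against 123 and 87 in WT (log2 fold change 0.02, SE 0.26).

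Col16a1 went the other way. It encodes a fibril-associated chain (ENSMUSG00000040690, chromosome 4, 129725084 to 129776527) and had 174 and 135 counts in the LT-HSC KO libraries, against 658 and 378 in the LT-HSC WT libraries. Its level was 29.6 ± 4.10 CPM in KO and 98.02 ± 31.2 CPM in WT (SD, n = 2), and it fell by 1.74 on the log2 scale (SE 0.28, adjusted p = 0.00230). Both KO libraries lay below both WT libraries. Per kilobase of exon, its mean level in LT-HSC WT was 14.5 CPM per kb, the highest of the collagen genes after Col6a6, with Col4a2 close to it at 13.6 CPM per kb.

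Many of the other members that rose are very long genes with few counts, so their counts were set against gene span, the distance from start to end in the deposited coordinates. As a yardstick, counts per 100 kb of span were taken over 14 other genes listed for both populations. They span over 200 kb and averaged under 0.1 CPM in MPP WT. Their median was 26.2 and 22.2 counts per 100 kb in the LT-HSC KO libraries against 0.670 and 0.979 in LT-HSC WT. In MPP, 5 genes chosen in the same way on LT-HSC WT gave 0.383 and 0.383 in KO against 0.480 and 0.480 in WT. LT-HSC KO libraries thus held far more counts along these otherwise near-silent genes. The cause was not tested.

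Of the 23 collagen genes over 100 kb outside the bone class, 14 lay within the middle 90% of the yardstick genes in both LT-HSC KO libraries, 5 lay above it (Col18a1, Col4a1, Col4a2, Col4a4 and Col6a6) and 4 differed between the libraries. All 5 bone fibrillar genes lay above it in both KO libraries. Over the 37 members outside the bone class, the rank correlation (Spearman's rho) of counts with span was 0.667 in LT-HSC KO against 0.302 in LT-HSC WT, and with exonic length 0.228 in KO against -0.0373 in WT. Over the 23 long members alone, rho with span was 0.328 in LT-HSC KO against 0.0778 in LT-HSC WT. These correlations are across genes that share libraries, and are given as a description. In MPP, over 32 members, rho with span was 0.00970 in KO against 0.166 in WT.

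The longest members show what this looks like. Col25a1, a transmembrane collagen of nerve cells that spans 419 kb, had 142 and 71 counts in the LT-HSC KO libraries, against 8 and 20 in WT, or 33.9 and 16.9 per 100 kb in KO. It rose by 2.91 (SE 0.52, adjusted p = 0.00358). Col19a1, a fibril-associated chain that spans 326 kb, had 108 and 90 counts in KO libraries, against 2 and 5 in WT, or 33.2 and 27.6 per 100 kb in KO, and rose by 4.77 (SE 0.49). Col4a6, which spans 309 kb, had 67 and 47 counts in KO libraries, against 12 and 19 in WT. Col23a1, a transmembrane chain that spans 294 kb, had 85 and 78 counts in KO libraries, against 9 and 17 in WT and rose by 2.64 (SE 0.42). Each lay within the yardstick's middle 90% in both KO libraries. At the 100 kb limit, Col6a5 (105 kb, 11 and 15 counts in KO libraries, against 1 and 0 in WT) is just inside the long set and Col6a3 (77.1 kb, 29 and 21 counts in KO libraries, against 3 and 0 in WT) just outside.

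**Figure D3:**
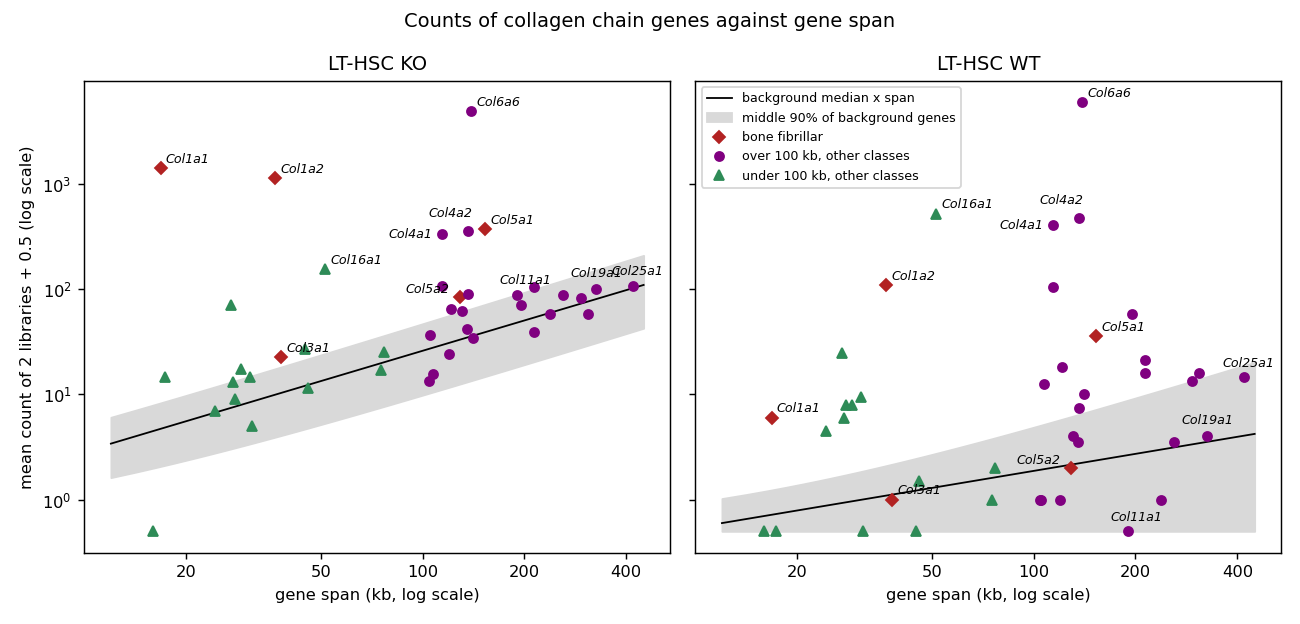
Mean count of the 2 libraries plus 0.5 (log scale) against gene span in kb (log scale) for the 42 collagen genes, LT-HSC KO on the left and LT-HSC WT on the right; the line and grey band are the median and middle 90% of counts per span of 14 long, otherwise near-silent genes. In KO the bone fibrillar diamonds lie above the band and 14 of 23 long members lie in it in both libraries, and the band itself lies far higher in KO than in WT.

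With the yardstick rate times span subtracted from every gene in every library, 13 of the 26 collagen genes called higher in LT-HSC KO were still called higher, 4 were no longer called and 9 could not be tested on the counts left. Over all genes, 3529 were called higher in LT-HSC KO before this subtraction and 1738 after it, so such a loss of calls was not particular to collagen genes. The 4 had smaller log2 fold changes after subtraction than before it: 0.14 after and 2.64 before for Col23a1, 0.72 and 2.91 for Col25a1, 1.17 and 1.85 for Col27a1, and 2.04 and 2.75 for Col4a5. The bone fibrillar genes kept all 5 calls: the subtracted amount was 0.289% of the KO counts of Col1a1, 0.783% for Col1a2, 10.01% for Col5a1, 37.2% for Col5a2 and 42.0% for Col3a1. For the 16 long members called higher it was 79.2% at the median and ranged from 36.6% to 195%, and 6 kept their call. For the 5 called members under 100 kb outside the bone class it was 41.1% at the median, and 2 kept their call. A wider yardstick took 130 genes over 200 kb that averaged under 0.5 CPM in MPP WT or were not listed for MPP. It was chosen after the data were seen. It gave 31.1 and 28.4 counts per 100 kb in KO against 1.86 and 2.39 in WT and left 8 calls. These were Col1a1, Col1a2, Col5a1, Col5a2, Col11a1, Col11a2, Col4a4 and Col8a1, while Col3a1 and Col5a3 had too few counts left. Col16a1 stayed lower under both. The wider yardstick left 1430 genes called higher over all genes.

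Col6a6, a type VI chain (ENSMUSG00000043719, chromosome 9, 105591747 to 105730415), had the highest level per kilobase of exon of the collagen genes in all 4 groups, at a mean of 95.7 to 126 CPM per kb, and was not called in any of the 4 comparisons by edgeR's test, which did not use the replicate number. It had 2858 and 6948 counts in the LT-HSC KO libraries, against 3854 and 7973 in the LT-HSC WT libraries, and in MPP 4923 and 19143 for KO and 3892 and 17173 for WT. In each group replicate 2 lay above replicate 1, by 2.57 times in LT-HSC KO, 2.28 times in LT-HSC WT, 3.92 times in MPP KO and 4.38 times in MPP WT. Over all 6691 genes above 32 CPM, the median of this ratio was 0.992 to 1.04. Of those genes, 17 had replicate 2 over 2-fold above replicate 1 in all 4 groups, Col6a6 among them, and 11 of the 17 encode ribosomal proteins; this comparison was chosen after the values were seen. The median ratio of 66 ribosomal protein genes was 1.40 in LT-HSC KO, 1.55 in LT-HSC WT, 1.40 in MPP KO and 1.39 in MPP WT. The cause of this shift between replicates was not tested. The labels do not say that replicate numbers pair libraries. With replicate number used as a block, Col6a6 was called in all 4 comparisons, lower in LT-HSC KO and higher in MPP KO.

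**Figure D4:**
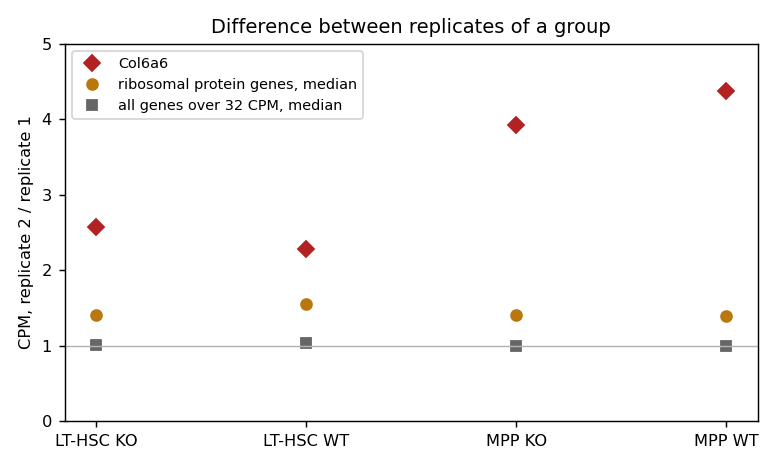
Ratio of CPM in replicate 2 to replicate 1 within each group for Col6a6 (diamonds), the median of 66 ribosomal protein genes (circles) and the median of all genes above 32 CPM (squares); the line marks 1. Col6a6 lies at 2.28 to 4.38, above the ribosomal protein genes at 1.39 to 1.55 and all genes near 1.

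In MPP far fewer collagen genes could be tested or differed. Of 19 tested, 4 were higher in KO, 1 was lower and 14 were not called, against 4.74% higher and 2.46% lower over all 14902 genes. The median log2 fold change was 0.28 over these 19 and -0.01 over all genes. The 4 that rose were all fibrillar. Col1a2 had 64 and 53 counts in the MPP KO libraries, against 17 and 15 in MPP WT, or 1.88 as a log2 fold change (SE 0.25, adjusted p = 0.0204). Col5a1 had 166 and 187 counts in KO libraries, against 70 and 67 in WT (1.39, SE 0.14, adjusted p = 0.0114). Col5a3 had 29 and 20 counts in KO libraries, against 3 and 4 in WT (2.78, SE 0.43, adjusted p = 0.0299), and Col11a2 93 and 103 in KO against 55 and 54 in WT (0.87, SE 0.16, adjusted p = 0.0438). Both KO libraries lay above both WT libraries in all 4.

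The gene that fell in MPP was Col4a2, with 257 and 222 counts in KO libraries, against 400 and 396 in WT, or -0.71 as a log2 fold change (SE 0.10, adjusted p = 0.0261). Its partner Col4a1 had 243 and 216 counts in KO libraries, against 333 and 299 in WT and was not called (-0.44, SE 0.11, adjusted p = 0.0863). Col1a1 was not testable in MPP, at 1 and 2 counts in KO libraries, against 4 and 3 in WT. Of the 12 long members tested in MPP none was higher, with 0 at an unadjusted p under 0.05 and 0 in DESeq2, and only Col4a2 was lower. The subtraction changed none of the 5 MPP calls. All 5 rested on both libraries of each group: without MPP KO replicate 1 only Col5a1 stayed called, and without any 1 of the other 3 libraries none did. With 1 library left out, Col5a1 ran from 1.29 to 1.48 and Col1a2 from 1.75 to 2.00, with adjusted p of 0.0417 to 0.296 and 0.0660 to 0.307.

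The difference between the populations was tested as an interaction, the log2 fold change in LT-HSC minus that in MPP, over all 8 libraries. Of 34 collagen genes tested, 14 had a larger value in LT-HSC and 1, Col16a1, in MPP, against 13.6% and 8.50% of all 16551 genes. Among the bone fibrillar genes Col1a1 (9.09, SE 1.07), Col1a2 (1.497, SE 0.40), Col5a1 (2.01, SE 0.31) and Col5a2 were called, so Col1a2 and Col5a1 rose in both populations and more in LT-HSC. Col1a1 and Col5a2 had too few MPP counts for a test within MPP. Col5a2 had 6 and 7 in MPP KO against 2 and 4 in MPP WT. Col16a1 had an interaction of -1.59 (SE 0.37, adjusted p = 0.0205), with 91 and 71 counts in the MPP KO libraries, against 86 and 97 in MPP WT. Col11a2, called in both populations, gave 0.68 (SE 0.33, adjusted p = 0.177). The Col1a2 and Col16a1 calls depended on single libraries: with 1 left out they ran from 1.18 to 1.75 and from -1.92 to -1.19, with adjusted p up to 0.146 and 0.0967, while Col1a1 and Col5a1 stayed called throughout. With the yardstick subtracted, 6 of the 14 were still called: Col1a1, Col1a2, Col5a1, Col5a2, Col11a1 and Col19a1. With the wider yardstick 4 were, the bone fibrillar ones. Over all genes, 2256 were called with a larger value in LT-HSC before subtraction, 1176 after it and 1094 with the wider yardstick.

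Collagen levels also differed between the WT populations. Of 19 genes tested in LT-HSC WT over MPP WT, 9 were higher in LT-HSC and none was lower, against 17.4% higher and 16.9% lower over all 14660 genes; none was lower at an unadjusted p under 0.05 or in DESeq2. Col1a2 was at 20.7 ± 1.70 CPM in LT-HSC WT and 1.34 ± 0.126 CPM in MPP WT (log2 fold change 3.96, SE 0.28, adjusted p = 0.000346). Col16a1 was at 98.02 ± 31.2 CPM in LT-HSC WT and 7.64 ± 0.603 CPM in MPP WT (SD, n = 2; 3.71, SE 0.30, adjusted p = 0.000557). Col4a1 and Col4a2 were higher in LT-HSC WT by 1.57 (SE 0.20) and 1.46 (SE 0.13), and Col28a1, a beaded filament chain, by 3.24 (SE 0.43). Col4a6, Col2a1, Col25a1 and Col18a1 were also called. Col18a1, Col25a1 and Col2a1 lost their call after the yardstick was subtracted, and also in DESeq2.

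The proteins that build and read collagen were followed in a list of 72 symbols, 62 of them in the tables. In LT-HSC 18 of 46 tested were higher in KO and 3 lower, against 22.5% higher and 10.9% lower over all genes, with a median log2 fold change of 0.41. With the yardstick subtracted 12 of the 18 stayed called, and with the wider one 9. In MPP 3 of 36 were higher and 2 lower, against 4.74% and 2.46% over all genes, with a median of 0.09. Of 16 tested enzymes and chaperones that modify and fold chains inside the cell, 1 was higher in LT-HSC KO and 2 were lower, with a median of -0.25. Serpinh1, the collagen chaperone HSP47, had 11 and 17 counts in the LT-HSC KO libraries, against 35 and 53 in WT and fell by 1.64 (SE 0.47, adjusted p = 0.0272), a call lost with the yardstick subtracted (adjusted p = 0.0595). Fkbp10, a folding enzyme of type I procollagen, had 1 and 3 counts in KO libraries, against 19 and 28 in WT (log2 fold change -3.47, SE 0.68, adjusted p = 0.00522). Glt25d2, which adds galactose to collagen, rose by 4.70 (SE 0.63, adjusted p = 0.00128). P4hb, a subunit gene of the prolyl hydroxylase, had 1503 and 1399 counts in KO libraries, against 1782 and 1630 in WT and was not called (-0.23, SE 0.15, adjusted p = 0.287). Sec24d, which encodes a coat protein for procollagen export, rose in MPP by 0.83 (SE 0.08, adjusted p = 0.0103).

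Of 10 genes for propeptide cleavage and cross-linking outside the cell, 6 were higher in LT-HSC KO, with a median of 1.66, against the same 22.5% over all genes. With the yardstick subtracted Adamts14, Tll2 and Pcolce2 stayed called, Adamts3 did not (adjusted p = 0.128), and Tll1 and Adamts2 could not be tested; with the wider yardstick Adamts14 alone stayed called. Adamts14, a procollagen N-propeptidase, had 37 and 50 counts in the LT-HSC KO libraries, against 3 and 3 in WT (3.81, SE 0.56) and also rose in MPP, with 48 and 56 counts in KO libraries, against 11 and 11 in WT (2.25, SE 0.27, adjusted p = 0.0155). Bmp1, the C-propeptidase, was not called in LT-HSC (-0.13, SE 0.26, adjusted p = 0.730). Of 7 tested noncollagen proteins of bone matrix, 6 were higher and 1, Bgn (biglycan), was lower. With either yardstick subtracted 5 of the 6 stayed called, and Dcn (decorin) could not be tested. Bglap, Bglap2, Ibsp and Dcn were at 0 in both WT libraries. They passed the filter through KO counts alone and could only come out higher, so the tally is in part set by the filter. Bglap, which encodes osteocalcin, had 184 and 62 counts in KO libraries, against 0 and 0 in WT, and Sparc, the collagen-binding protein osteonectin, had 233 and 169 in KO against 17 and 10 in WT (3.89, SE 0.35, adjusted p = 0.000240). Bgn had 325 and 270 counts in the LT-HSC KO libraries, against 486 and 482 in WT (-0.70, SE 0.17, adjusted p = 0.0141), a call lost with the wider yardstick (adjusted p = 0.0616), and also fell in MPP (-0.81, SE 0.11, adjusted p = 0.0235). Spp1, which encodes osteopontin, had 0 and 0 counts in the LT-HSC KO libraries, against 6 and 14 in WT and was not tested.

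Of 8 collagen receptors tested, 5 were higher in LT-HSC KO, against 22.5% over all genes. Their median log2 fold change was 2.17, against 0.03 over all genes and 0.02 for the 8 receptors tested in MPP. With the yardstick subtracted Itga1, Mrc2 and Itga2 stayed called, Itga11 did not (adjusted p = 0.0620), and Ddr2 could not be tested; with the wider yardstick Itga1 and Mrc2 stayed called. The integrin chain gene Itga1 had 61 and 66 counts in the LT-HSC KO libraries, against 3 and 2 in WT (4.60, SE 0.53), and Mrc2, an uptake receptor for collagen fragments, had 56 and 38 in KO against 2 and 2 in WT (4.47, SE 0.60). The shared integrin chain gene Itgb1 had 1429 and 1418 counts in KO libraries, against 1496 and 1495 in WT and was not called (-0.07, SE 0.15, adjusted p = 0.759). In MPP the matrix protease gene Mmp2 had 166 and 149 counts in KO libraries, against 70 and 71 in WT and rose by 1.18 (SE 0.14, adjusted p = 0.0143).

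Many markers of other marrow cells also differed between KO and WT in LT-HSC. Over all genes tested there, 22.5% were called higher and 10.9% lower. Tested markers at 0 in both WT libraries passed the filter through KO counts alone and could only come out higher. They were Bglap, Bglap2, Ibsp, Ebf3, Cxcl12, Prg4, Cspg4, Dcn, Ngp and S100a8, so the tallies of their lists are in part set by the filter. Of 10 osteoblast lineage markers in the table, 6 (Bglap, Bglap2, Ibsp, Sp7, Dmp1 and Mepe) were at 0 in both WT libraries and none was at 0 in a KO library, and 6 of 7 tested were higher in KO. Their summed level was 148 to 163 CPM in KO and 75.4 to 96.3 CPM in WT, where Runx2, which was not called, had 446 and 471 counts in KO libraries, against 392 and 447 in WT. Of 9 niche stromal markers, 3 of 6 tested were higher, with a summed level of 57.3 to 63.4 CPM in KO and 20.4 to 22.3 CPM in WT, and Cxcl12, Ebf3 and Pdgfra at 0 in both WT libraries. Of 8 cartilage markers, 2 of 3 tested were higher, with 65.2 to 67.2 CPM in KO and 24.3 to 25.9 CPM in WT; Prg4 was at 0 in both WT libraries, and Sox9 had 2 and 2 counts in KO libraries, against 6 and 5 in WT. Smooth muscle and pericyte markers (2 of 4 tested higher) summed to 20.0 to 23.7 CPM in KO and 8.84 to 11.9 CPM in WT, and fibroblast markers (2 of 3 higher) to 10.1 to 14.002 CPM in KO and 4.22 to 8.76 CPM in WT. Endothelial markers (2 of 8 higher, near the share over all genes) summed to 310 to 353 CPM in KO and 413 to 445 CPM in WT. Blood cell markers moved too: erythroid markers (7 of 7 higher) summed to 2260 to 3172 CPM in KO and 338 to 512 CPM in WT, neutrophil markers (4 of 4 tested higher) to 22.9 to 24.5 CPM in KO and 1.28 to 1.41 CPM in WT, and megakaryocyte markers (4 of 5 lower) to 243 to 296 CPM in KO and 670 to 796 CPM in WT. Of the 9 markers of LT-HSC themselves, 3 (Ly6a, Vwf and Fgd5) were lower in KO and none was higher. They summed to 1763 to 1791 CPM in KO and 2423 to 2472 CPM in WT. Ly6a lost its call with the yardstick subtracted (adjusted p = 0.0822). The part of any of these cell types in the collagen results was not tested.

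In MPP the osteoblast lineage markers summed to 180 to 196 CPM in KO and 170 to 184 CPM in WT, with 1 of 4 tested higher. Neutrophil markers (3 of 5 tested higher) summed to 354 to 364 CPM in MPP KO and 111 to 122 CPM in MPP WT, mostly from Elane, and erythroid markers (4 of 7 higher) to 538 to 673 CPM in KO and 319 to 416 CPM in WT. Endothelial markers (1 of 8 higher) summed to 227 to 243 CPM in KO and 248 to 258 CPM in WT; the one higher was Cdh5, with 153 and 139 counts in KO libraries, against 48 and 53 in WT (1.55, SE 0.15, adjusted p = 0.0103). Of the 5 markers of MPP themselves, 1 (Cd34) was lower in KO and none was higher. The part of any of these cell types in the MPP collagen results was not tested. The authors' deposited table gave a false discovery rate under 0.05 to 28 collagen genes higher and 1 lower of 42 in LT-HSC, and to 5 higher and 1 lower of 36 in MPP.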

How the data were processed

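Poly(A) RNA of 8 libraries was used, 2 for each genotype and population. The authors deposited raw read counts, as 1 table for each population with Ensembl genes in rows. Beside these counts the authors deposited, per the file headers, a log2 fold change and mean log2 CPM, a likelihood ratio score, and a p-value with its false discovery rate. CASAVA, TopHat and the mm9 build are named in the submitters' processing notes; the sources used here name no version, read counter or annotation. Genotype and replicate number linked each count column to its sample, with 0 columns unmatched.

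The deposited counts were tested with edgeR 4.0.16 in R 4.3.3: filterByExpr, TMM, a quasi-likelihood test, Benjamini-Hochberg over all genes tested, and a threshold of 0.05. The number of genes tested was 15684 in LT-HSC, 14902 in MPP, 16551 for the interaction and 14660 between the WT groups. The standard error (SE) is the log2 fold change over the square root of the F statistic. CPM scales counts to a library's total count and is shown with SD over n = 2. Where a group had 0 counts in all, the fold is a lower bound with 3 counts put in its place. Where it had 1 to 3, the ratio of normalized counts carries an exact binomial interval at 95%, for counting error only. Exonic lengths come from GENCODE M21 as the union of all annotated exons of a gene, matched by Ensembl ID for 19375 genes and all 42 members. Alternatives were DESeq2 1.42.0, other size factors, no filter, each library left out, replicate number as a block, and subtraction of counts along gene span.

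The members, classes and lists were chosen with earlier results of these data known. The genes named were the bone fibrillar chains, the 6 called members with the largest fold in each population, every member called lower, the 4 longest outside the bone class, and the 3 with the highest mean CPM in WT of each population; further members and list genes were named after their values were seen. The tests were also run on counts simulated from the means and common spread of these data. Of planted 2-fold changes they called 41% in LT-HSC, 97% in MPP, 24% for the interaction and 63% between the WT groups. Planted 4-fold changes were called in 97% to 100%.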

Additional observations from a re-analysis of the deposited data

Results flagged for a closer look

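The difference between KO and WT itself differed between LT-HSC and MPP for 15 collagen genes, by edgeR's test of the interaction with Benjamini-Hochberg adjustment. All but Col16a1 had a larger KO over WT value in LT-HSC. Col1a1, Col5a2, Col11a1, Col12a1, Col22a1, Col4a4 and Col25a1 had too few MPP counts for a test within MPP. Col11a1, for example, had 0 and 2 counts in MPP KO against 1 and 4 in MPP WT. For these genes the interaction rests on the LT-HSC difference and on an MPP fold that is hardly known. For the bone fibrillar genes the adjusted p was 0.00243 for Col1a1, 0.0314 for Col1a2, 0.00484 for Col5a1 and 0.0110 for Col5a2. For the other fibrillar genes it was 0.0101 for Col11a1, 0.0433 for Col5a3 and 0.0385 for Col27a1. For the fibril-associated genes it was 0.0028 for Col19a1, 0.0226 for Col22a1, 0.0264 for Col12a1 and 0.0205 for Col16a1, which alone was lower in LT-HSC KO. For the basement membrane genes it was 0.0185 for Col4a4 and 0.0237 for Col4a5, and for the transmembrane genes 0.0127 for Col23a1 and 0.0385 for Col25a1. Of these 15 calls, 7 remained with the counts along gene span subtracted: Col1a1, Col1a2, Col5a1, Col5a2, Col11a1, Col16a1 and Col19a1.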

How the results depend on the processing

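The number of collagen genes called higher in LT-HSC KO, 26, became 13 with the counts along gene span subtracted and 8 with the wider yardstick; leaving out 1 library gave 18 to 27, with 18 without LT-HSC KO replicate 1. The 1 called lower became 4 with the replicate block, which added Col4a1, Col4a2 and Col6a6, and 1 to 2 with 1 library left out. In MPP the 4 called higher became 2 without a filter, 3 in DESeq2 (without Col11a2), 6 with the block (Col17a1 and Col6a6 added) and 0 to 1 with 1 library left out, and the 1 called lower became 2 with the block (Col4a1 added) and 0 with any library left out. For the interaction, the 14 larger in LT-HSC became 6 with subtraction, 4 with the wider yardstick and 5 to 12 with 1 library left out, lowest without MPP KO replicate 1 or MPP WT replicate 2. The 1 larger in MPP became 2 with the block, 3 with subtraction, 2 with the wider yardstick and 0 to 1 with 1 library left out. The 9 genes higher in LT-HSC WT than in MPP WT became 5 with the wider yardstick. Over all genes, calls higher in LT-HSC KO went from 3529 to 1738 with subtraction and 1430 with the wider yardstick. Interaction calls with a larger value in LT-HSC went from 2256 to 1176 and 1094. The share of calls that were higher, over all genes, was 67.3% in LT-HSC and 54.6% with the block, 65.9% in MPP and 48.9% with the block, and 61.6% for the interaction, 50.9% with the block, 49.7% with subtraction and 47.4% with the wider yardstick. Replicate numbers are not said to pair libraries; deviations of same-numbered libraries correlated at 0.424 in LT-HSC, 0.683 in MPP and 0.458 between the WT groups. The block also called Col6a6, at -0.31 in LT-HSC (SE 0.06, adjusted p = 0.000193), 0.25 in MPP (SE 0.02, adjusted p = 1.74e-26), -0.57 for the interaction, and between the WT groups. A lone library left in a group is assumed to vary like the others.

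Over the genes named by the rule, 420 values kept their call and direction under an alternative, 65 lost the call, 9 gained one and 17 reversed. With 1 library left out, Col6a6 ran from -1.05 to 0.34 in LT-HSC, from -1.08 to 1.65 in MPP and from -1.92 to 0.80 for the interaction. Col16a1 in MPP ran from -0.34 to 0.0027 and Col19a1 in MPP from -0.36 to 0.24, with 0.074 after subtraction. The interaction of Col4a1 ran from -0.080 to 0.38, that of Col4a6 was -6.53 with subtraction, and that of Col23a1 was -0.19 with subtraction and -6.79 (adjusted p = 0.0376) with the wider yardstick. The cause was not tested. Members with 0 to 3 WT counts in all have a fold known only as a lower bound or a wide interval.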
